A study of Mus musculus with 8 samples.

Results

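The transcripts of 10 genes of the Wnt/beta-catenin pathway were followed in sorted growth plate cells of mice treated with SAG or with its vehicle. The genes were beta-catenin itself (*Ctnnb1*), components of the complex that destroys it (*Apc*, *Axin1*, *Axin2*, *Gsk3b*, *Btrc*), and the transcription factors through which it acts (*Lef1*, *Tcf7*, *Tcf7l1*, *Tcf7l2*). They were chosen by symbol for their place in the pathway, with earlier results of these data known. All 10 were among the 16536 genes of the count table, and all 10 were among the 15421 genes that passed the filter on low counts. *Lef1* and *Btrc* were among the Wnt genes that the study drew as changed on these same libraries, *Btrc* also among its Hh genes, and *Axin2* among its stem cell markers, so their direction here is not independent evidence.

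All mice carried the Pthrp-mCherry reporter, in which mCherry marks cells expressing *Pthlh*, the gene of PTHrP. DMSO (the vehicle, 4 mice) or SAG (a small-molecule agonist of Smoothened, which activates Hh signaling, 4 mice) was injected i.p. once a day from P30 to P36, and the mice were killed at P38. Cells of both femoral growth plates of a mouse were sorted as mCherry+CD73+, which enriches for stem cells of the resting zone, and each mouse gave 1 RNA-Seq library. The comparison of the groups asks how systemic Hh activation is accompanied by changes in transcripts of these cells. The reporter and the CD73 antibody define the cells by a gate and not by lineage.

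Beta-catenin is controlled mainly as a protein. In the absence of a Wnt ligand, the scaffolds APC and AXIN hold it for phosphorylation by casein kinase 1 and GSK3, after which the ubiquitin ligase subunit beta-TrCP (*Btrc*) marks it for degradation. A Wnt signal inhibits this complex, beta-catenin accumulates and enters the nucleus, and it binds the TCF/LEF factors on DNA, which repress their targets without it. *Axin2*, *Lef1*, and *Tcf7* are themselves targets of this pathway in many cell types, so that their transcripts are often read as its output. In the growth plate the pathway takes part in the maturation of chondrocytes. RNA counts do not measure the amount or location of beta-catenin protein.

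The letters before a transcription start are given for *Lef1*, the member with the largest difference between the groups, and for *Axin2*, the target most often used as a reporter of the pathway. The sequences are the 250 bases before a RefSeq start in GRCm38.p6, on the plus strand, at chr3:131110073-131110322 for *Lef1* and chr11:108920099-108920348 for *Axin2*. Capitals mark CTTTG, the core letters of the TCF/LEF site. In GENCODE release M21 the *Lef1* gene spans chr3:131110471-131224356, so that its annotated start lies downstream of this RefSeq start, and *Axin2* spans chr11:108920349-108950783.
Lef1: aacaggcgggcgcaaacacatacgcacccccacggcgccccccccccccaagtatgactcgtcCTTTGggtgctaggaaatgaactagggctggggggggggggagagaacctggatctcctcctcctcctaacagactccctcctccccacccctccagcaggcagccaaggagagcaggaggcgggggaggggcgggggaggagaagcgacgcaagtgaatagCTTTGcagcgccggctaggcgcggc
Axin2: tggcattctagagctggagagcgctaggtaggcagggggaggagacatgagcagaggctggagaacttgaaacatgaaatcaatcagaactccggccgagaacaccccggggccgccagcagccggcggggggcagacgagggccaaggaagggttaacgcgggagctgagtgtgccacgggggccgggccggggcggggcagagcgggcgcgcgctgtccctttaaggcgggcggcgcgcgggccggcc
RefSeq gives 4 starts for *Lef1*, and the window printed is the one with the most CTTTG on the strand shown. It held CTTTG 2 times, the other *Lef1* windows 1, 0, and 0 times on that strand and 0, 1, and 3 times on the other strand, and the *Axin2* window 0 times. RefSeq windows were found for 7 of the 10 members, 13 windows in all, and CTTTG or its reverse complement CAAAG lay in 8 of them, in *Gsk3b*, *Lef1*, *Tcf7l1*, and *Tcf7l2*. The same letters lay in 48.6% of all 32851 RefSeq windows. The longer form CTTTGAT, which contains CTTTG, lay in 0 of the 13 windows and in 3.21% of all windows on either strand. The letters GACCACCCA of a GLI site, the site of the transcription factors of Hh signaling, lay in 0 of the 13 and in 0.225% of all. These are matches of letters in short windows and say nothing of binding.

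The libraries held between 24971992 and 46593090 counts on genes, and the members between 46 and 9741 counts each. DMSO replicate 4 stood apart from the other libraries before any member is considered. It had the lowest total, and 14416 genes were detected in it against between 15524 and 16285 in the other 7 libraries. Across genes (not independent replicates), Spearman's rho of CPM with the other DMSO libraries ranged from 0.834 to 0.868, against 0.926 to 0.938 among those. No pair of libraries of 1 group differed by as little as sampling noise. The chondrocyte markers (14 genes, such as *Col2a1*, the collagen of cartilage) summed to 49015 CPM (counts per library of equal size after TMM scaling) in DMSO replicate 4 against between 87084 and 111093 in the other DMSO mice. B-lineage markers summed to 480 CPM in it against between 94.3 and 299.9 in those. Erythroid markers summed to 9093 CPM in it against between 1012 and 3511, and neutrophil markers to 15225 against between 5390 and 10666. T and NK cell markers and endothelial markers were also at their highest of the DMSO mice in it. Those of monocytes and macrophages and of osteoblasts and stroma lay among the other DMSO mice. For this reason the fold change of each member is given with and without DMSO replicate 4.

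Cell markers also differed between the groups. Chondrocyte markers summed to between 49015 and 111093 CPM in DMSO and between 19319 and 57933 CPM in SAG, neutrophil markers to between 5390 and 15225 in DMSO and between 28944 and 46150 in SAG, and B-lineage markers to between 94.3 and 480 in DMSO and between 29.9 and 57.7 in SAG. Of the 14 neutrophil markers 11 rose, of the 11 B-lineage markers tested 3 fell, and of the 14 chondrocyte markers 0 passed the test, although 12 of them had an unadjusted p under 0.05 and a lower level in SAG (edgeR's quasi-likelihood test). Of all genes tested 2.62% rose and 0.266% fell, and 6.50% had an unadjusted p under 0.05 with a lower level in SAG. T and NK cell markers, of a lineage known for *Lef1* and *Tcf7* expression, summed to between 48.1 and 100.3 CPM in DMSO and between 52.0 and 57.4 in SAG. Of the 9 tested, 0 passed the test, 5 were above 0 in log2 fold change, and 4 below. Among the defining T cell genes, *Cd3e* was between 0 and 0.0759 CPM in DMSO and between 0.274 and 3.59 in SAG, whereas *Lck* was lower in every SAG mouse, at a log2 fold change of -1.94, and *Cd3d* was at -0.85 (adjusted p = 0.134, 0.408, and 0.255 in this order, edgeR). The genes of the sort were present in every mouse, *Pthlh* at between 14.9 and 22.1 CPM in DMSO and between 18.4 and 29.9 in SAG, and *Nt5e*, which encodes CD73, at between 184 and 270 in DMSO and between 149 and 174 in SAG. In such bulk libraries fewer cells of a type and less RNA per cell cannot be told apart.

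Across the members, 0 of 10 passed the test between SAG and DMSO, where 2.89% of all genes tested did and 0.266% did so with a lower level in SAG (edgeR's quasi-likelihood test, Benjamini-Hochberg adjusted p under 0.05). At an unadjusted p under 0.05 the count was 3. DESeq2 called 2 members, both lower, where it called 2.53% of all genes lower. The median log2 fold change of the members, SAG over DMSO, was -0.57, beside -0.08 over all genes tested. It was -0.61 without DMSO replicate 4 and -0.33 without DMSO replicate 1. It was below 0 for 8 of the 10 members, where 54.8% of all genes were below 0, and for 2 of them, *Lef1* and *Btrc*, when libraries were scaled to the chondrocyte markers, a scaling that raised the median of all genes by 1.10. Relative to the median of all genes, the median of the members was -0.49 under TMM and -0.43 under that scaling. A scaling moves all genes of a library alike, so subtracting that median largely undoes it. The nearness of these values is therefore no check on the scaling. *Lef1*, *Btrc*, and *Tcf7* had an unadjusted p under 0.05, all with lower levels in SAG, where 6.50% of all genes were so. Of these 3, *Btrc* belongs to the degradation of beta-catenin, and *Lef1* and *Tcf7* are both TCF/LEF factors. Without DMSO replicate 4, edgeR called 1 member lower, *Lef1*, where 2.17% of all genes were called lower. The plot of CPM by mouse shows the 10 members.

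**Figure D1:**
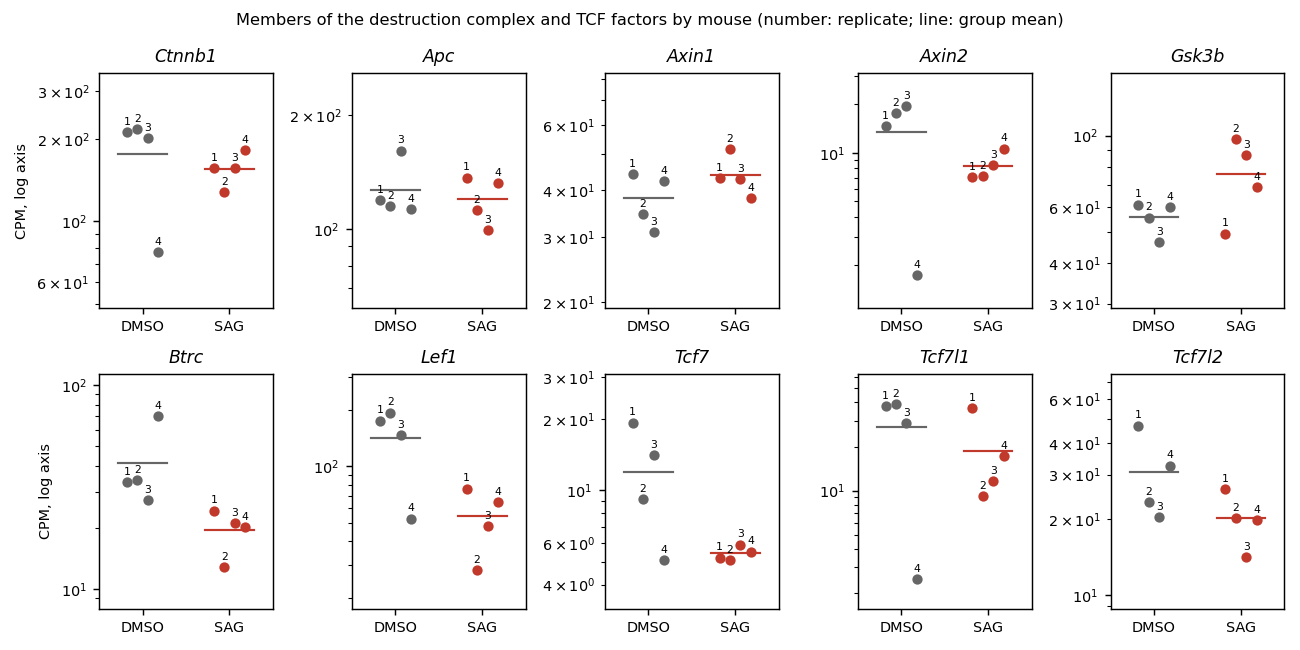
CPM of the 10 members (logarithmic axis, a range of its own in each panel) in 4 DMSO mice (grey) and 4 SAG mice (red), with the replicate number above each point and the mean of the group as a line. In *Btrc* alone all 4 SAG mice lie below all 4 DMSO mice, and DMSO replicate 4 lies at 77.4 CPM in *Ctnnb1*, 1.75 in *Axin2*, 52.9 in *Lef1*, and 2.51 in *Tcf7l1*, below the other DMSO mice, but at 70.4 in *Btrc*, above them.

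*Lef1*, a DNA-binding partner of beta-catenin, showed the largest difference of the members. In DMSO replicates 1 to 4 it was at 175, 193, 147, and 52.9 CPM. In SAG replicates 1 to 4 it was at 76.2, 28.1, 48.4, and 65.0 CPM. Every SAG mouse lay below DMSO replicates 1 to 3, whereas DMSO replicate 4 lay within the SAG range, so that the groups overlapped. The mean was 142 ± 62.4 CPM in DMSO and 54.4 ± 20.9 CPM in SAG (SD, n = 4), 0.383 of the DMSO level or a log2 fold change of -1.39 ± 0.40 (SE) with an adjusted p of 0.0899 (edgeR). DESeq2's Wald test gave an adjusted p of 0.00867 and limma voom with sample quality weights 0.00585, past the threshold, where 2.53% and 2.52% of all genes were called lower by these tests. Leaving out DMSO replicate 4 gave -1.63 ± 0.29 with an adjusted p of 0.00519 (edgeR), and the groups did not overlap. Leaving out any 1 of the other 7 libraries gave log2 fold changes that stayed below 0 and adjusted p-values between 0.0941 and 0.238 (edgeR). Scaled to the chondrocyte markers, *Lef1* was at -0.34 with an adjusted p of 0.633 (edgeR). Relative to the median of all genes, a subtraction that largely undoes the scaling, this log2 fold change was -1.36. Only *Ctnnb1* did not overlap between the groups under this scaling, higher in SAG, where 20.5% of all genes were higher without overlap. With the neutrophil marker score as a covariate the log2 fold change of *Lef1* was 0.75 ± 0.66 with an adjusted p of 0.600 (edgeR). Summed neutrophil markers did not overlap between the groups, so that the treatment and the neutrophil share cannot be told apart by that fit.

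*Tcf7*, which encodes TCF1, was the least abundant TCF/LEF factor in SAG per length of transcript. It was at 19.4, 9.15, 14.1, and 5.09 CPM in DMSO replicates 1 to 4 and at 5.20, 5.06, 5.90, and 5.52 CPM in SAG replicates 1 to 4. The 4 SAG mice lay close together, at 5.42 ± 0.37 CPM (SD, n = 4), and only DMSO replicate 4 reached down to them from the DMSO mean of 11.9 ± 6.17. The log2 fold change was -1.14 ± 0.48 with an adjusted p of 0.268 (edgeR). The groups did not overlap without DMSO replicate 4, and the log2 fold change was -1.36 ± 0.39 with an adjusted p of 0.0538 by edgeR and 0.0105 by DESeq2, the latter an alternative added after the data were seen.

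*Tcf7l1* encodes TCF3, which acts mostly as a repressor of Wnt targets. It was at 37.5, 38.9, 28.9, and 2.51 CPM in DMSO replicates 1 to 4 and at 36.5, 9.20, 11.6, and 17.2 CPM in SAG replicates 1 to 4. Both groups held 1 mouse far from the rest, DMSO replicate 4 at the low end and SAG replicate 1 at the high end. The log2 fold change was -0.53 ± 0.67 with an adjusted p of 0.782 (edgeR), and the lowest adjusted p among the leave-one-out fits was 0.239, without DMSO replicate 4, at a log2 fold change of -0.88. *Tcf7l2*, which encodes TCF4, was at 46.9, 23.4, 20.3, and 32.6 CPM in DMSO and at 26.3, 20.2, 14.1, and 19.9 CPM in SAG. Here DMSO replicate 4 lay among the other DMSO mice. The groups overlapped through SAG replicate 1 alone, and the log2 fold change of *Tcf7l2* was -0.61 ± 0.33 with an adjusted p of 0.413 (edgeR). It was -0.56 without DMSO replicate 4 and -0.33 without DMSO replicate 1, the mouse with the highest level.

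*Ctnnb1* was the most abundant member per length of transcript in both groups. Its levels were 212, 217, 201, and 77.4 CPM in DMSO replicates 1 to 4 and 156, 128, 156, and 183 CPM in SAG replicates 1 to 4. The SAG mice filled the gap between DMSO replicate 4 and the other DMSO mice. With all libraries the log2 fold change was -0.18 ± 0.29 with an adjusted p of 0.836 (edgeR). Without DMSO replicate 4 the groups did not overlap, the DMSO mean was 210.3 ± 8.40 CPM (SD, n = 3), and the log2 fold change was -0.40 ± 0.17 with an adjusted p of 0.176 (edgeR).

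*Btrc*, the substrate receptor that recognizes phosphorylated beta-catenin as well as the GLI factors of Hh signaling, was at 33.3, 34.2, 27.3, and 70.4 CPM in DMSO replicates 1 to 4. In SAG replicates 1 to 4 it was at 24.2, 12.8, 21.03, and 20.1 CPM. It was the only member whose groups did not overlap with all 8 libraries, where 3.84% of all genes were lower in SAG without overlap. The log2 fold change was -1.08 ± 0.35 with an adjusted p of 0.132 by edgeR and 0.0398 by DESeq2. DMSO replicate 4 lay at 2.23 times the mean of the other DMSO mice. The B-lineage markers were at their highest in the same library, and so were the erythroid, T and NK cell, and endothelial markers. Without it *Btrc* was still lower in every SAG mouse, but the log2 fold change was -0.66 ± 0.28, with an adjusted p of 0.185 by edgeR and 0.121 by DESeq2. With the B-lineage marker score as a covariate it was -0.57 ± 0.68 with an adjusted p of 0.718 (edgeR). With the neutrophil marker score it moved the other way, to -1.85 ± 0.61 with an adjusted p of 0.2497 (edgeR). Summed markers of either type did not overlap between the groups, so that neither score can be told apart from the treatment in these fits.

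*Axin2*, a scaffold of the complex and a feedback target of the pathway, was at 14.6, 17.6, 19.5, and 1.75 CPM in DMSO replicates 1 to 4 and at 7.04, 7.20, 8.42, and 10.6 CPM in SAG replicates 1 to 4. The value in DMSO replicate 4 rested on 46 counts and was 0.101 of the mean of the other DMSO mice. All 4 SAG mice lay below DMSO replicates 1 to 3 and above replicate 4. The log2 fold change was -0.69 ± 0.60 with an adjusted p of 0.658 (edgeR). When DMSO replicate 4 was left out it was -1.02 ± 0.34 with an adjusted p of 0.0859 by edgeR and 0.0268 by DESeq2, and the groups did not overlap. *Axin1*, its constitutively expressed paralog, was at 44.4, 34.6, 30.9, and 42.4 CPM in DMSO and at 43.2, 51.7, 42.8, and 38.2 CPM in SAG, with overlapping groups and a log2 fold change of 0.21 ± 0.22 (adjusted p = 0.738, edgeR), or 0.29 without DMSO replicate 4.

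*Apc*, the tumor suppressor scaffold, was at 119, 115, 161, and 113 CPM in DMSO replicates 1 to 4 and at 136, 112, 99.2, and 132 CPM in SAG replicates 1 to 4. The groups lay on top of each other, with a log2 fold change of -0.08 ± 0.19 (adjusted p = 0.896, edgeR), the smallest of the members, or -0.11 without DMSO replicate 4. *Gsk3b*, the kinase, was at 60.9, 55.5, 46.6, and 60.0 CPM in DMSO and at 49.5, 97.7, 86.8, and 69.1 CPM in SAG. SAG replicates 2 to 4 lay above all DMSO mice and SAG replicate 1 lay among them. The log2 fold change was 0.44 ± 0.23 with an adjusted p of 0.401 (edgeR). It was 0.51 without DMSO replicate 4, and without SAG replicate 1 it was 0.60 ± 0.22 with an adjusted p of 0.194 (edgeR). The groups then did not overlap in *Gsk3b* (higher), *Btrc*, and *Tcf7l2* (lower), where 10.8% of all genes were higher and 6.06% lower without overlap.

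**Figure D2:**
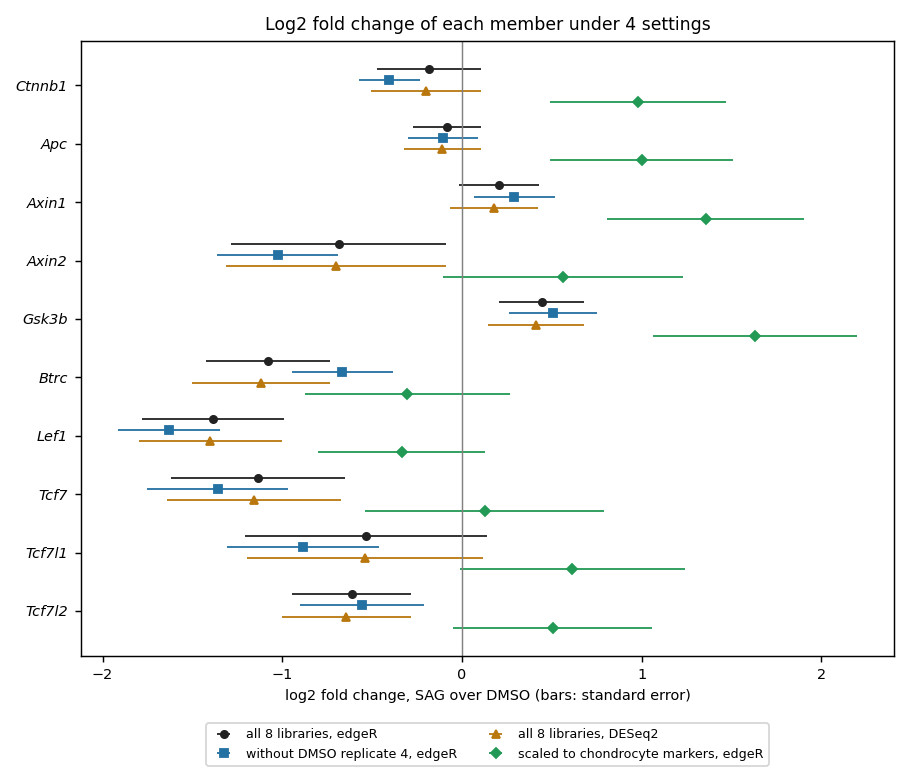
Log2 fold change of each member, SAG over DMSO (x axis), with its standard error as a bar, under 4 settings. The first 3 settings lie close together for most members, while scaling to the chondrocyte markers (green) moves all 10 to the right and leaves *Lef1* (-0.34) and *Btrc* (-0.31) below 0.

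Without DMSO replicate 4, 5 of the 10 members were lower in every SAG mouse than in every DMSO mouse, namely *Ctnnb1*, *Axin2*, *Btrc*, *Lef1*, and *Tcf7*. Of all genes 10.1% were lower without overlap in that comparison of 3 mice against 4. DESeq2, run without that library as an alternative added after the data were seen, called *Lef1*, *Tcf7*, and *Axin2* lower, where 5.19% of all genes were called lower. With all 8 libraries DESeq2 had called *Lef1* and *Btrc*. *Lef1* was therefore called by DESeq2 with and without DMSO replicate 4, *Btrc* only with it, and *Axin2* and *Tcf7* only without it. On simulated data with 200 genes changed 2-fold, DESeq2 recovered 37 of them and made 47 false calls, while edgeR made 0 calls. The simulated counts were drawn independently for each gene and held no library that stands apart, as DMSO replicate 4 does. The share of false calls among the DESeq2 calls of members therefore cannot be read from them. The B-lineage marker score as a covariate also left *Lef1* lower, at -2.75 ± 0.60 with an adjusted p of 0.0261 (edgeR), where 1.10% of all genes were called lower. Summed B-lineage markers did not overlap between the groups either, so that this score and the treatment cannot be told apart in that fit.

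Ratios of 2 transcripts within a mouse do not depend on the scaling of its library. Of 11 ratios computed, 3 did not overlap between the groups. *Lef1* counts were 82.5%, 88.7%, 73.1%, and 68.4% of *Ctnnb1* counts in DMSO replicates 1 to 4. In SAG replicates 1 to 4 they were 48.7%, 21.9%, 30.9%, and 35.6%. DMSO replicate 4, which was low in both genes, thus lay beside the other DMSO mice in this ratio, and the mean was 78.2% ± 9.17 in DMSO and 34.3% ± 11.1 in SAG (SD, n = 4). The ratio of *Gsk3b* to *Btrc* counts, the kinase against the ligase subunit that acts after it, was between 85.3% and 183% in DMSO and between 205% and 763% in SAG. The other one was *Ctnnb1* over *Col2a1*, at between 0.238% and 0.374% in DMSO and between 0.504% and 1.09% in SAG. *Lef1* over *Col2a1* overlapped, at between 0.163% and 0.323% in DMSO and between 0.168% and 0.245% in SAG, and so did *Axin2* over *Col2a1* and *Btrc* over *Col2a1*. The mean of *Axin2* over *Col2a1* was 0.0231% ± 0.0133 in DMSO and 0.0361% ± 0.0172 in SAG, the opposite direction to its CPM. That of *Btrc* over *Col2a1* was 0.0933% ± 0.0824 in DMSO and 0.0797% ± 0.0211 in SAG (SD, n = 4 each). The ratio of *Axin2* to *Axin1* was 33.0%, 51.0%, 62.9%, and 4.12% in DMSO and 16.3%, 13.9%, 19.7%, and 27.7% in SAG, so that the groups overlapped through DMSO replicate 4. *Btrc* counts were between 60.5% and 213% of those of its paralog *Fbxw11* in DMSO and between 21.1% and 78.8% in SAG. The pairs were chosen later, with the values of the members known. *Gsk3b* over *Btrc* sets the member with the highest log2 fold change over the only member lower without overlap. The share of other gene pairs without overlap was not computed, so the count of 3 has nothing to be set against. These ratios are descriptions and were not tested.

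**Figure D3:**
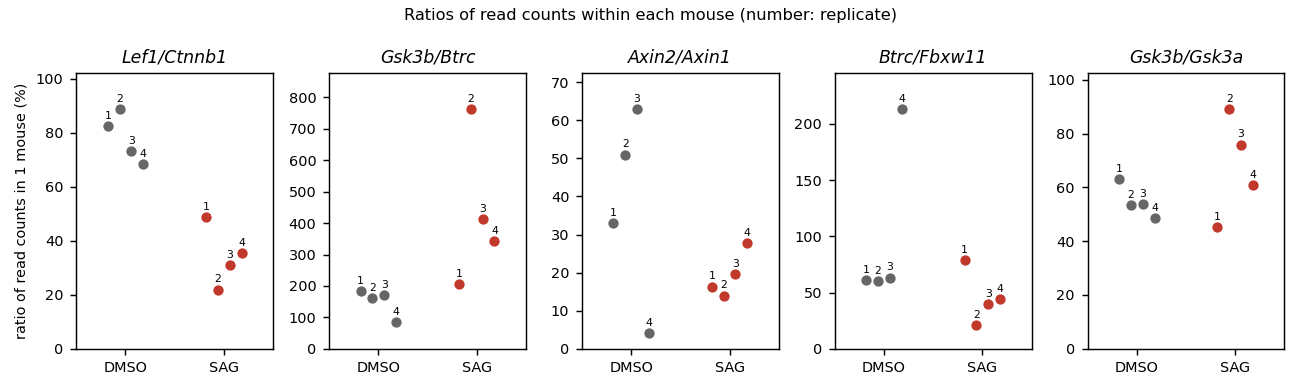
Ratio of the read counts of 2 genes within each mouse in percent (y axis from 0, a range of its own in each panel), for 4 DMSO mice (grey) and 4 SAG mice (red), with the replicate number at each point. *Lef1* over *Ctnnb1* lies between 68.4% and 88.7% in DMSO and between 21.9% and 48.7% in SAG, and *Axin2* over *Axin1*, *Btrc* over *Fbxw11*, and *Gsk3b* over *Gsk3a* overlap.

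Levels of different genes were compared per length, as CPM per kb of the longest coding transcript in GENCODE release M21. In DMSO *Ctnnb1* was at 48.9 ± 18.4 and *Lef1* at 40.8 ± 17.9 CPM per kb, with overlapping ranges, although *Ctnnb1* was the higher of the pair in each of the 4 mice. In SAG *Ctnnb1* was at 43.0 ± 6.17 and *Lef1* at 15.6 ± 6.01 CPM per kb (SD, n = 4 each), and the range of *Lef1*, from 8.07 to 21.9, lay below that of *Ctnnb1*, from 35.3 to 50.4. In DMSO the other members were, in falling order, *Btrc*, *Axin1*, *Apc*, *Tcf7l1*, *Tcf7l2*, *Gsk3b*, *Tcf7*, and *Axin2*, from 13.6 ± 6.46 to 3.14 ± 1.88 CPM per kb, and each of these overlapped with its neighbor in the order. In SAG *Axin1* followed *Lef1* at 11.6 ± 1.48, and *Axin2* was last there at 1.95 ± 0.39. The place of *Btrc* depends on the length used, since its longest coding transcript has 3037 bases and the union of its exons 16908. With the union of exons *Btrc* ranked 9 of 10 in DMSO and last in SAG, and *Lef1* ranked 2 in DMSO and 5 in SAG.

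Within the TCF/LEF family *Lef1* held the largest share of the summed CPM per kb in each of the 8 mice by the longest coding transcript. Its share was between 56.6% and 70.9% in DMSO (63.8% ± 6.42) and between 43.4% and 58.5% in SAG (52.7% ± 7.13), with overlapping ranges. By the union of exons it was between 47.2% and 57.7% in DMSO and between 32.7% and 45.8% in SAG, without overlap. By that length *Lef1* was not the largest in SAG replicate 1, at 37.8% against 40.6% for *Tcf7l1*. *Tcf7l1* held between 3.07% and 16.4% in DMSO and between 16.0% and 27.9% in SAG by the longest transcript. *Tcf7l2* took 32.7% in DMSO replicate 4, the mouse in which *Tcf7l1* was lowest. Within the Axin pair *Axin2* held between 3.52% and 35.8% in DMSO and between 11.0% and 19.7% in SAG.

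**Figure D4:**
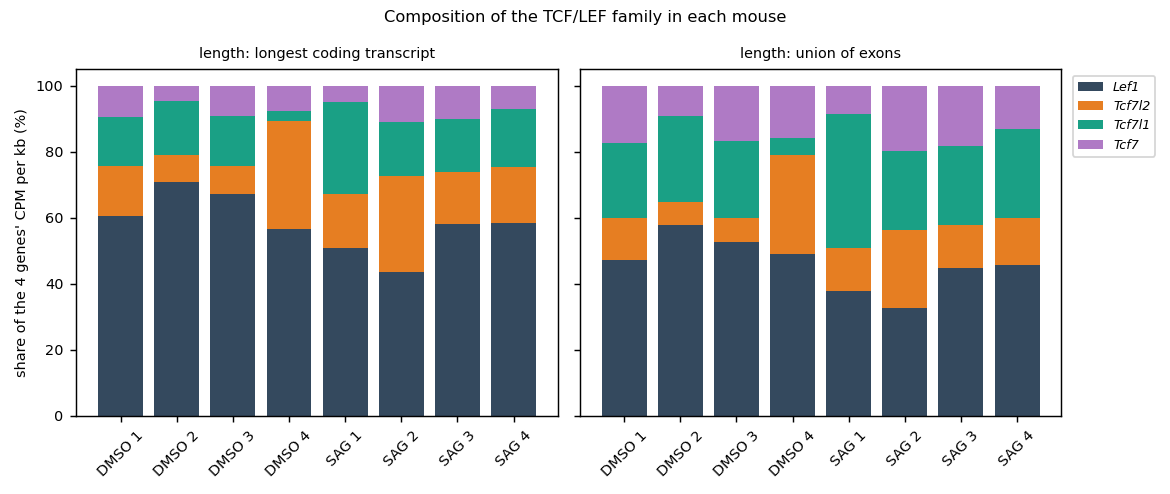
Share of *Lef1*, *Tcf7l2*, *Tcf7l1*, and *Tcf7* in the summed CPM per kb of the 4 genes (y axis, percent), 1 stacked bar per mouse, by the longest coding transcript (left) and by the union of exons (right). The *Lef1* part is between 56.6% and 70.9% in DMSO and between 43.4% and 58.5% in SAG on the left, and the narrow *Tcf7l1* part of DMSO replicate 4 is 3.07%.

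Members differed among themselves in their pattern across the mice. The nearest pair in log2 CPM centered on each gene's mean over the 8 libraries was *Axin1* and *Gsk3b*, with a root mean square distance of 0.25, and the farthest was *Btrc* and *Tcf7l1*, with 1.61. Among 9312 genes with a mean of at least 10 CPM, those nearest to *Lef1* were *Cemip* (0.12), which encodes a hyaluronan-binding protein, *Ehd3* (0.17), of endocytic recycling, and *Angptl2* (0.19), which encodes a secreted protein. *Cemip* was at a mean of 194 CPM in DMSO and 79.9 CPM in SAG. Those nearest to *Axin2* were *Ergic1* (0.31), *Dyrk2* (0.33), and *Usp53* (0.33), and those nearest to *Btrc* were *Zfp369* (0.19), *Map7* (0.20), and *Rsl1d1* (0.23). All distances rest on the same 8 libraries, DMSO replicate 4 included.

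Other genes of the pathway were read from lists written by function. The 21 partners of the destruction complex include casein kinase 1, protein phosphatase 2A, and the FRAT proteins that hold GSK3 away from the complex. Of them 0 passed the test, where 2.89% of all genes did, and their median log2 fold change was 0.09. The smallest p-values among them belonged to *Frat2*, with a log2 fold change of 1.56 ± 0.62 (adjusted p = 0.237, edgeR), *Csnk1e*, with 0.66 ± 0.27, and *Ppp2r1a*, with 0.45 ± 0.23. Of 25 nuclear cofactors tested, 2 rose and 0 fell, where 2.62% of all genes rose. *Aes*, a Groucho-related protein without the repressor domain of its relatives, rose from 83.4 ± 9.03 to 172.9 ± 28.1 CPM (SD, n = 4), a log2 fold change of 1.05 ± 0.18 with an adjusted p of 0.0140 (edgeR). *Tle3*, a Groucho corepressor that binds TCF factors, rose from 151 ± 18.9 to 262 ± 52.3 CPM, a log2 fold change of 0.80 ± 0.19 with an adjusted p of 0.0455 (edgeR). In both, all 4 SAG mice lay above all 4 DMSO mice, and so they did in *Tbl1xr1*, a subunit of corepressor complexes, at 0.75 ± 0.21 with an adjusted p of 0.0799 (edgeR). *Ctbp1*, at 0.48 ± 0.21 (adjusted p = 0.266, edgeR), was also higher in every SAG mouse. In all, 4 of the 25 cofactors were higher without overlap and 1 lower, where 1219 and 592 of all 15421 genes tested were. Without DMSO replicate 4 the adjusted p-values of *Aes*, *Tle3*, and *Tbl1xr1* were 0.00404, 0.0120, and 0.0459 (edgeR). With the neutrophil marker score as a covariate *Aes* was at 0.84 with an adjusted p of 0.348 and *Tle3* at 0.20 with an adjusted p of 0.808 (edgeR). That fit called 0 of all 15421 genes higher, and its score cannot be told apart from the treatment. Scaled to the chondrocyte markers, *Aes* was at 2.18 with an adjusted p of 0.0413 and *Tle3* at 1.95 with an adjusted p of 0.0566 (edgeR). Chosen after their values were seen, the coactivators *Bcl9l* and *Bcl9*, which link beta-catenin to its nuclear complex, lay in the other direction, *Bcl9l* at -0.83 ± 0.24 with an adjusted p of 0.0977 by edgeR and 0.0220 by DESeq2, and *Bcl9* at -0.53 ± 0.25 (adjusted p = 0.347, edgeR), lower in every SAG mouse. The list did not split into corepressors that rose and coactivators that fell. The coactivator *Ep300* was at 0.65 ± 0.19 (adjusted p = 0.103 by edgeR and 0.0437 by DESeq2). The Groucho genes *Tle1* and *Tle2* were at -0.70 ± 0.40 and -0.94 ± 0.49 (adjusted p = 0.450 and 0.397, edgeR). Of the 25 cofactors, 13 were above 0 in log2 fold change and 12 below.

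Of 15 target genes of beta-catenin and TCF tested, 1 rose and 0 fell, where 2.62% of all genes rose and 0.266% fell. The median log2 fold change of the targets was -0.39. The one that rose was *Cd44*, the hyaluronan receptor, which leukocytes express at high levels, from 299.9 ± 33.7 to 679 ± 135 CPM (adjusted p = 0.0116, edgeR, and 0.00256 without DMSO replicate 4). *Nkd2*, a feedback inhibitor, was at 9.995 ± 3.22 CPM in DMSO and 3.16 ± 2.25 in SAG (adjusted p = 0.186, edgeR, and 0.113 without DMSO replicate 4). *Notum*, a secreted enzyme that inactivates Wnt ligands, was at 53.5 ± 29.1 CPM in DMSO and 22.8 ± 15.5 in SAG (adjusted p = 0.282, edgeR). Leaving out DMSO replicate 4, the adjusted p of *Notum* was 0.0446 at a log2 fold change of -1.52 ± 0.42 (edgeR). Beside those same shares of all genes, 1 of 9 adhesion partners of beta-catenin tested rose and 0 fell. It was *Vcl*, which encodes vinculin, a protein linking adhesion sites to actin, from 119 ± 20.05 to 258 ± 53.0 CPM (adjusted p = 0.0151, edgeR, and 0.00273 without DMSO replicate 4). With the neutrophil marker score as a covariate the adjusted p was 0.387 for *Cd44* and 0.441 for *Vcl* (edgeR). That fit called 0 of all 15421 genes higher and 11 lower. The score cannot be told apart from the treatment in it, so the source of these transcripts was not tested. *Ctnna1*, which encodes the alpha-catenin that binds beta-catenin at cadherins, was at a log2 fold change of -0.26 ± 0.18 and *Ctnnd1*, which encodes p120-catenin, at -0.51 ± 0.28 (adjusted p = 0.556 and 0.418, edgeR).

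**Figure D5:**
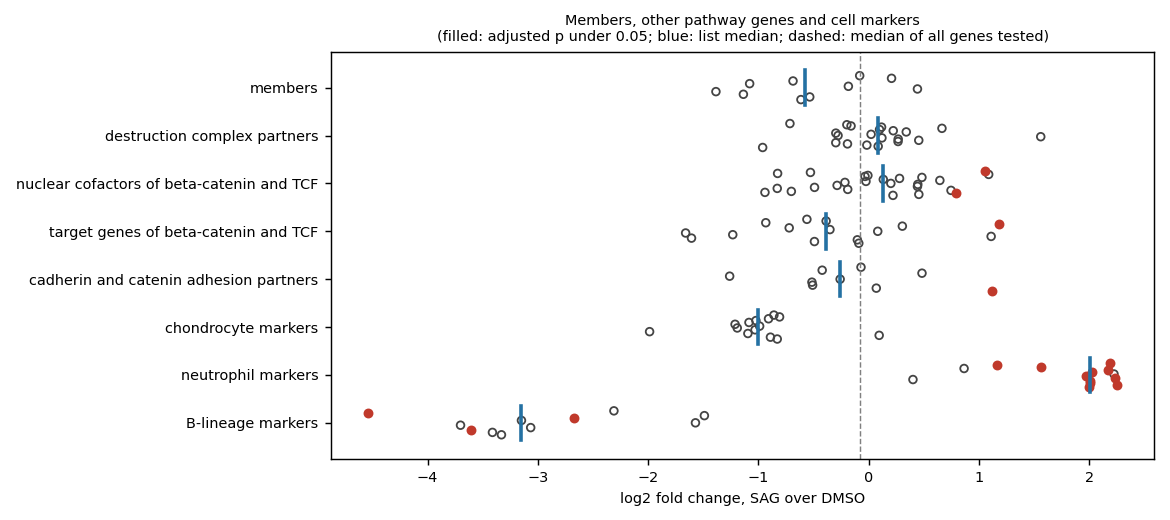
Log2 fold change, SAG over DMSO (x axis), of each gene of the members, of 4 lists of other pathway genes, and of 3 lists of cell markers, with genes past an adjusted p of 0.05 filled, the median of each list in blue, and the median of all genes (-0.08) dashed. The median of the members is -0.57, between those of the chondrocyte markers (-1.01) and the destruction complex partners (0.09), and scaling to the chondrocyte markers moves the median of all genes up by 1.10.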

How the data were processed

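RNA of sorted cells was sequenced from 8 mice, 4 per group, each library a separate mouse. The authors deposited raw counts per gene symbol, all whole numbers. The submitters' processing notes name kallisto, DESeq2, and GRCm38, without roles. Since kallisto estimates counts, the whole numbers may be rounded estimates. Whether the counting used strand is not given in the sources used here, and 9 of the 10 members overlap a gene annotated on the other strand. Gene names were matched to GENCODE release M21 (16524 of 16536 found).

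Counts were analyzed in R 4.3.3. Genes passing filterByExpr (15421) were scaled by TMM and compared by the robust quasi-likelihood test of edgeR 4.0.16, with Benjamini-Hochberg adjustment over all of them and a threshold of 0.05. CPM used the TMM factors, and log2 CPM a prior count of 2. Named genes were all members, genes of 4 other pathway lists past the threshold (or the smallest p-values up to 3), the 3 genes nearest to *Lef1*, *Axin2*, and *Btrc*, listed markers, and the genes of the sort. The ratios and the printed promoters were chosen later. Members and lists were chosen with earlier results of these data known. Alternatives were DESeq2 1.42.0, limma 3.58.1 voom with sample quality weights, other scalings and filters, marker scores as covariates, a replicate block, and leaving out each library. In simulated comparisons of SAG against DMSO with 200 changed genes, edgeR recovered 0% at a 2-fold change (15021 genes), 48.5% at 4-fold (14962 genes), and 62% at 8-fold (14992 genes), with 0, 4, and 4 false calls, while DESeq2 recovered 18.5%, 65%, and 75% with 47, 61, and 54 false calls. The simulated counts were independent between genes, with the dispersions that edgeR estimated from all 8 libraries, and held no library that stands apart.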

Additional observations from a re-analysis of the deposited data

Results flagged for a closer look

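In a group of 4 mice, a mouse was singled out where its gap to the nearest other mouse, divided by the range of the group, was above Dixon's critical value for 4 samples. Of 20 pairs of a member and a group, 3 were singled out, where chance gives about 1. *Ctnnb1* was lowest in DMSO replicate 4, at 77.4 CPM against 201 in the next mouse, with a ratio of 0.883. *Btrc* was highest in the same mouse, at 70.4 CPM against 34.2, with a ratio of 0.840. *Apc* was highest in DMSO replicate 3, at 161 CPM against 119, with a ratio of 0.866. DMSO replicate 4 had the lowest summed chondrocyte markers of the DMSO mice (49015 CPM) and the highest summed B-lineage markers (480 CPM). Its erythroid, neutrophil, T and NK cell, and endothelial markers were also the highest of the DMSO mice. The part of any of these in its *Ctnnb1* and *Btrc* levels was not tested.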

How the results depend on the processing

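Of 180 values of single members under alternatives, 158 kept their direction and their side of the threshold, 8 passed the threshold, and 14 changed direction. The count of members past the threshold, 0 by edgeR, was 2 by DESeq2, 1 by limma voom, 1 with the B-lineage score as a covariate, and 3 by DESeq2 without DMSO replicate 4 (added after the data were seen). All of these were lower, where 2.53%, 2.52%, 1.10%, and 5.19% of all genes were called lower, in this order. Leaving out each library in turn, by edgeR, gave counts between 0 and 1. The 1 was *Lef1* without DMSO replicate 4, where 2.17% of all genes were called lower. Between 1 and 5 members did not overlap in those fits, with 5 without DMSO replicate 4 and 3 (*Gsk3b* higher, *Btrc* and *Tcf7l2* lower) without SAG replicate 1. Of all genes 10.1% were lower without overlap in the former, and 10.8% were higher and 6.06% lower in the latter. The median of the members was between -0.69 and -0.33 without 1 library, -1.03 with the B-lineage score, and it reversed to 0.59 when scaled to chondrocyte markers and to 0.28 with the neutrophil score. Scaled to chondrocyte markers, *Ctnnb1* was at 0.98, *Apc* at 1.00, *Axin2* at 0.56, *Tcf7* at 0.13, *Tcf7l1* at 0.61, and *Tcf7l2* at 0.51, and *Ctnnb1* was the 1 member without overlap (higher). With the neutrophil score, *Ctnnb1* was at 1.33, *Axin2* at 1.77, *Lef1* at 0.75, *Tcf7* at 0.20, and *Tcf7l1* at 3.55, all with an adjusted p above the threshold. That fit called 0 of all 15421 genes higher and 11 lower. *Apc* was at 0.052 with the B-lineage score, and from -0.15 to 0.032 over the fits without 1 library, above 0 without DMSO replicate 3 and, at 0.0022, without SAG replicate 3. Scaling to chondrocyte markers moved the median of all genes up by 1.10. Relative to the median of all genes, the median of the members was -0.43 under that scaling, with 8 members below 0. Under TMM it was -0.49, with 7 members below 0. The subtraction largely undoes a scaling, so the nearness of these values is no check on it. Beyond the shift of all genes, the cause of the changes in direction was not tested.

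The labels do not say that the replicate numbers pair the mice, and the low correlations given next cannot exclude a pairing. Same-numbered libraries had correlations of their deviations from the group means of 0.12, 0.011, 0.016, and 0.024, and 3 of 8 libraries correlated best with their own number. With the replicate block 334 genes were called higher and 18 lower, against 404 and 41 without it, and 0 members. The median of the members was -0.37, *Lef1* was at -1.33 (adjusted p = 0.198, edgeR), and *Btrc* at -1.01 (adjusted p = 0.200, edgeR).

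Marker levels of other cell types differed between the groups, so that a change within the sorted cells and a change in their mixture cannot be told apart. Members held between 46 and 9741 counts, so the spread between mice enters every comparison beside counting error.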
